A study of Mus musculus with 6 samples.

Results

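Cytosolic ribosomal proteins are the protein parts of the ribosomes that translate nuclear messages. Their genes were taken from the expression table by symbol: every protein-coding row named Rpl or Rps with a number, plus Rplp0, Rplp1 and Rpsa. Rows named as pseudogenes were left out, as were kinases and binding partners that share the prefix. This gave 62 genes of 13734 in the table, 35 of the large (60S) and 27 of the small (40S) subunit. Subunits were assigned by prefix alone, so copies such as Rps23rg1 are counted without evidence that their product is in the ribosome. Of these, 61 reached at least 1 CPM (counts scaled to library size) in at least 3 libraries and were tested among 10054 genes; Rpl3l was not. Other ribosomal protein genes, such as Rps6, Rpl4, Rpl11, Rps19 and Rplp2, are not analysed here.

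The messages of these genes are among the most abundant in a mammalian cell, and most proteins are needed in equal numbers, 1 for each ribosome. Their messages begin with a C and a run of pyrimidines at the cap, the 5′ terminal oligopyrimidine (TOP) tract, through which mTOR and the binding protein Larp1 control how well they are translated. Myc and mTOR are known to raise ribosome production when cells grow. Several of the proteins have paralogs or act outside the ribosome, for example in the Mdm2 and p53 response to failed ribosome assembly.

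The cells were white adipocytes differentiated from a single immortalized mouse subcutaneous preadipocyte line. All 6 cultures carried Dicer1 flox/flox alleles and Cre-ERT2, a recombinase that 4-hydroxytamoxifen (4-OHT) activates, and all received 10 µM isoproterenol, a beta-adrenergic agonist, for 6 h at the end. From day 6 of differentiation the DICERKO cultures (3 libraries) received 10 µM 4-OHT for 48 h, which activates Cre to delete the floxed part of Dicer1, the gene of the enzyme that cuts microRNA precursors. The controls (3 libraries) received the ethanol vehicle; the titles call them WT control, although they carry the floxed alleles. The effect of 4-OHT itself and that of the deletion cannot be told apart in this design. The labels call the libraries biological replicates without saying that the cultures were differentiated separately; a p-value here reflects how much these libraries vary, which may be technical.

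The values are log2 CPM of poly(A) RNA, with 13569034 to 30268077 reads on the table's genes in each library. Dicer1 checked the labels: it stood at 6.14, 6.09 and 6.14 log2 CPM in controls 1 to 3, and at 5.43, 5.47 and 5.49 in DICERKO replicates 1 to 3 (difference -0.66, limma adjusted p = 0.0150). DICERKO replicate 3 stood apart from its group. A chi-square of its reads against DICERKO replicates 1 and 2 gave 85.5 and 92.8 per degree of freedom. DICERKO replicates 1 and 2 gave 8.36 against each other, and pairs of controls gave 12.05 to 26.43. DICERKO replicate 3 also had the most reads, and this measure was not corrected for depth. The 12 adipocyte markers, Adipoq and Fabp4 among them, summed to 7914 to 9816 CPM in the controls. They summed to 12770 and 12560 CPM in DICERKO replicates 1 and 2, and to 4049 CPM in replicate 3. The single markers did not all move alike: 5 of the 12 had a negative difference over all libraries. Without DICERKO replicate 3, 2 did, Lpl (-0.30) and Cd36 (-0.15). The markers of preadipocytes and fibroblasts (11 with a value) summed to 13440 to 15530 CPM in controls and to 8768 to 9666 CPM in DICERKO. All 9 tested had a negative difference over all libraries. Without DICERKO replicate 3, 6 did, and Pdgfra, Ly6a and Cd34 were above 0 (0.03, 0.18 and 0.10). Macrophage markers summed to 33.6 to 39.7 CPM and endothelial markers to 4.94 to 8.16 CPM over the 6 libraries, with Lyz2, Mrc1, Pecam1 and Cdh5 under 1 CPM throughout. Smooth muscle and pericyte markers (6 with a value) summed to 587 to 753 CPM in the controls and to 559 to 629 CPM in DICERKO. The median of the 4 tested lay at 0.15, 0.09 and -0.24 log2 from the control mean in controls 1 to 3, and at -0.21, -0.48 and -0.22 in DICERKO replicates 1 to 3. Their part in the ribosomal protein values was not tested. In bulk RNA, fewer cells of a type and less RNA in each cell cannot be told apart. Values without DICERKO replicate 3 therefore stand beside those over all 6 libraries for gene groups and for most of the genes described singly.

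Because the TOP tract lies at the start of these messages, the region around a RefSeq transcript start is shown first for the genes on which the results turn. In Rps2, Rps12 and Rps27l the start in the table lies inside the span of the gene, so theirs is not the outermost annotated 5′ end. Each line is a stretch of 30 bases from the RefSeq promoter table (GRCm38.p6), 5′ to 3′ on the gene's strand, with the longest run of C and T within 50 bases of the annotated start in capitals. The upper 7 genes are those with the smallest p, all lower in DICERKO, and the lower 4 are those with the largest positive differences. Counted in bases from the annotated start, the capitals begin at 39 in Rpl12, -50 in Rpsa, 8 in Rps12 and 40 in Rps2. They begin at 11 in Rplp0, -16 in Rpl13, -13 in Rpl34, -22 in Rps25 and Rps27l, -36 in Rpl24 and 1 in Rpl22l1. Negative numbers lie before the start, so a marked run need not be the TOP tract.
Rpl12: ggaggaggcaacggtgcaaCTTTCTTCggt
Rpsa: gcggaagttctcCCTTTTTgcttagcctgc
Rps12: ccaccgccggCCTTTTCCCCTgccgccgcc
Rps2: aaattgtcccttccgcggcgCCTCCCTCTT
Rplp0: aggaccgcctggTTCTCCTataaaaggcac
Rpl13: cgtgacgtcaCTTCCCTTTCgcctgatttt
Rpl34: ctgacgcgccgCCTTCCCTgacgtacttcc
Rps25: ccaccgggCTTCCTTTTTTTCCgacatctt
Rps27l: ccccgcctccaCTCCTCTCCactcctcccc
Rpl24: acctcaaacccaCTCCCCgccaatgctgta
Rpl22l1: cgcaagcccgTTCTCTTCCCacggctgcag
The stretches of Rpl13 (chr8:123102324-123102353, + strand), Rps12 (chr10:23787182-23787211, - strand), Rpl12 (chr2:32961732-32961761, + strand) and Rps25 (chr9:44407684-44407713, + strand) show a run of C and T of 10, 11, 8 and 14 bases. Those of Rpsa (chr9:120127704-120127733), Rplp0 (chr5:115559466-115559495) and Rps2 (chr17:24720083-24720112), all on the + strand, hold runs of 7, 7 and 10 bases, and that of Rps2 ends at the last base of its table entry. The run of Rpsa was cut at the edge of the searched span, and the C and T letters just before its capitals were not counted.

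Of the 62 genes, 47 had a promoter in the table, each of 300 bases, from 250 before to 50 after the start. A run of at least 10 C or T within 50 bases of the start was found in 27 of the 47 (57.5%), against 15.9% of the 7932 tested genes with a promoter and 18% of all 27025 promoters. The letters CCGGAAG, the core bound by ETS factors, were found on either strand in 34.04% of the members, 17.4% of the tested genes and 9.12% of all promoters. AAGATGGC, a YY1 motif, was found in 4.26% of members and 4.30% of tested genes, and TATAAA in 12.8% and 7.17%. A match describes letters in these windows and not a bound site, and annotated starts can lie away from the starts used in these cells. Among members whose DICERKO libraries all lay below all controls, 7 of 17 held the long run (41.2%), and among the other tested members 20 of 29 did (69.0%). CCGGAAG was in 35.3% and 34.5% of these groups.

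The genes ran from abundant to nearly silent. Per kb of annotated transcript, which allows levels to be compared between genes, the highest were Rpl8, a protein near the catalytic centre of the 60S subunit, at 10.33 log2 CPM per kb, Rplp0, the base of the stalk that recruits elongation factors, at 10.32, and Rplp1, another stalk protein, at 10.29. These 3 differed from each other by less than the spread of each over the controls (SD 0.11, 0.14 and 0.07 log2). Rps15 followed at 9.86 and Rps18 at 9.82. On the scale not corrected for length, 55 of the 62 genes were at 6 log2 CPM or above. The lowest tested genes were Rpl32l, Rps27 and Rps23rg1, at means of 1.88, 1.44 and 0.50 log2 CPM.

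**Figure D1:**
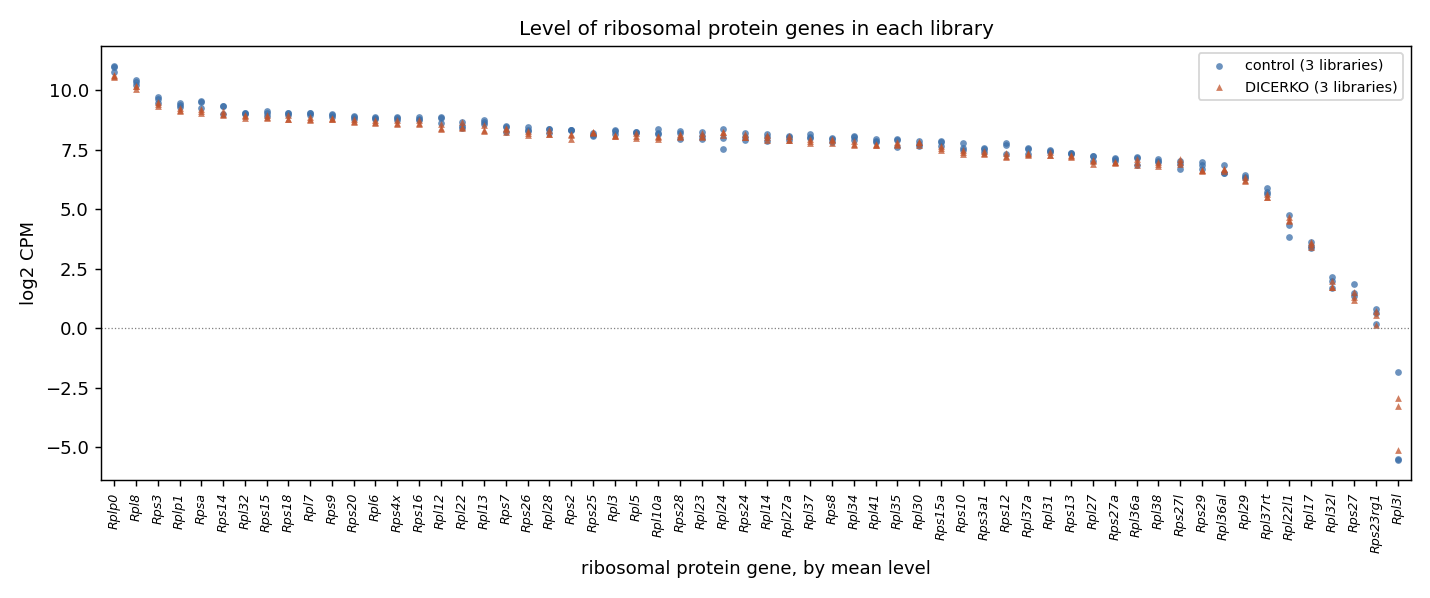
Level of 60 of the 62 ribosomal protein genes in each library, in log2 CPM not corrected for length, ordered by the mean over libraries; circles are the 3 controls and triangles the 3 DICERKO libraries, and the dotted line is 1 CPM. The libraries of a gene lie close together from Rplp0 down to Rpl17, apart from Rpl24 and Rpl22l1, whose controls spread by 0.43 and 0.46 log2 (SD), and Rpl3l lies below the line in all 6.

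Rpl3l, a paralog of Rpl3 that striated muscle uses, was listed at -5.55, -5.50 and -1.82 log2 CPM in controls 1 to 3, and at -5.14, -3.28 and -2.94 in DICERKO replicates 1 to 3. These values are reads close to or at 0, and no difference was computed. Rps27, a 40S protein and the parent of Rps27l, stood at 1.34, 1.46 and 1.84 log2 CPM in controls and 1.17, 1.32 and 1.53 in DICERKO. Per kb it stood at 2.98 log2 CPM, against 9.86 for Rps15 and 9.82 for Rps18. Of the 50-base stretches in the transcripts of Rps27, 63.1% also occur in another annotated gene (Rps27rt), so how reads with several matches were counted bears on its level. Rpl17 stood at 3.37 to 3.61 log2 CPM in the controls, and 44.7% of its stretches occur in other genes.

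Shared sequence is common in this family, whose messages gave rise to many pseudogenes. Among the 60 members with annotated transcripts in GENCODE M21, a median of 46.1% of 50-base stretches also occurred in another annotated gene, 27 members shared at least 50% and 2 shared none. The counting rule for such reads is not given in the sources used here, so the level of a member with near-copies is uncertain. The direction of the differences was alike in both groups: the median was -0.14 (log2) in the 27 tested genes that share at least 50% and -0.15 in the 32 that share less, and -0.18 in both without DICERKO replicate 3.

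As a group the ribosomal protein genes were a little lower in DICERKO, and no single gene passed the test. The difference (DICERKO minus control, log2 CPM) was negative for 52 of 61 genes and positive for 9, with a median of -0.15, quartiles of -0.20 and -0.07 and a range from -0.35 to 0.27. Over all 10054 tested genes the median was 0.02, with quartiles of -0.15 and 0.18, and 47.2% were negative, against 85.2% of the ribosomal protein genes. By limma with an intensity trend and Benjamini-Hochberg adjustment over all tested genes, 0 of 61 were called lower and 0 higher at a threshold of 0.05, where the shares of all tested genes called were 0.288% lower and 0.149% higher. The smallest adjusted p was 0.244. At an unadjusted p under 0.05, 7 were lower (11.5%, against 7.35% of all tested genes) and 0 higher, and limma-voom on the recovered reads also called 0.

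In the deposited values, every DICERKO library lay below every control in 26 of the 61 genes (42.6%), and in 9.81% of all tested genes. In 0 members did every DICERKO library lie above every control, against 10.4% of all tested genes. The genes of the group share their libraries and tend to vary together, so their number adds no replicates to the 3 against 3. The 95% intervals of the single differences reached from -0.70 to 0.71 (log2) at their outermost, and 8 extended below -0.5.

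**Figure D2:**
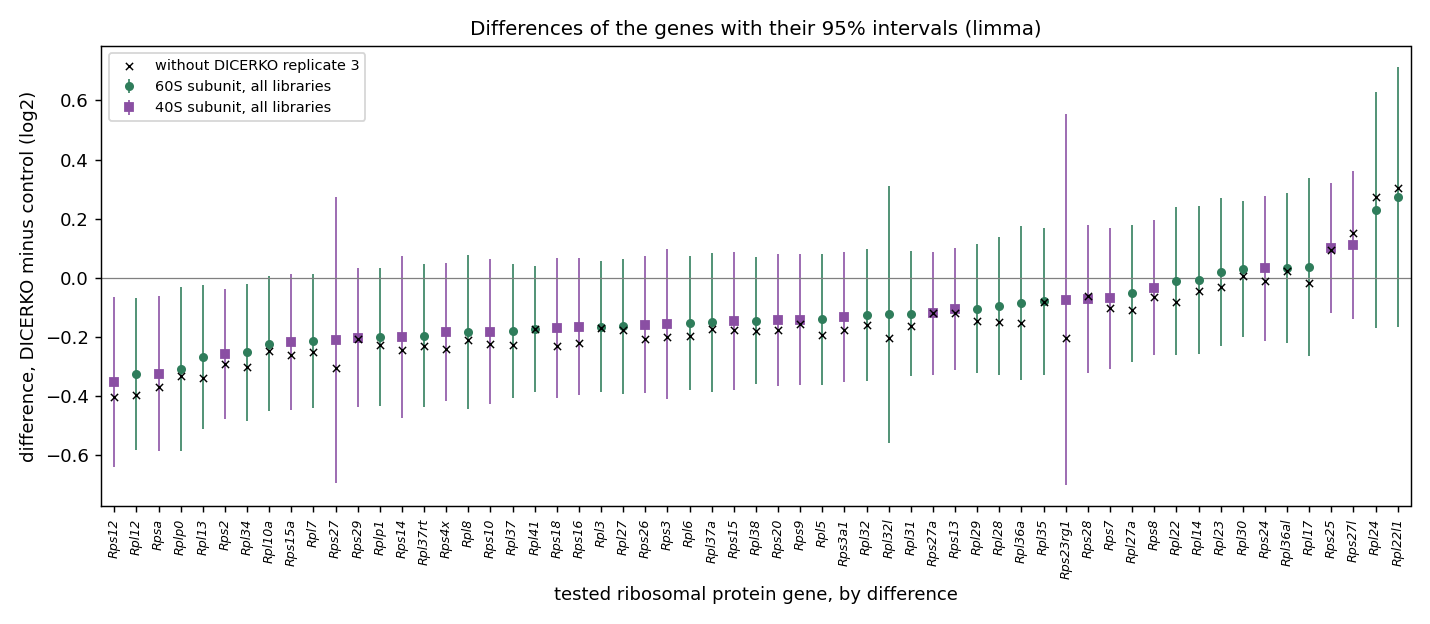
Difference between DICERKO and control (log2 CPM) of 59 of the 61 tested genes, ordered by size, with its 95% interval from limma over all 6 libraries; circles are 60S and squares 40S genes, and crosses give the difference without DICERKO replicate 3. Differences run from -0.35 for Rps12 to 0.27 for Rpl22l1, and 50 lie below 0.

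Without DICERKO replicate 3, 8 genes passed the test and all 8 were lower. That is 13.1% of the 61, against 7.22% of all tested genes called lower in the same fit, and 0 were called higher, against 12.5%. Rpl12, Rpl13, Rpsa, Rps12, Rpl34, Rps2 and Rplp0 were among them. The group's median was then -0.18, with 55 genes negative and 6 positive. Leaving out this library lowered the difference of 55 of the 61 genes, and in 49 genes it was the highest DICERKO library. Adipocyte markers were lowest in the same library, as given above; the part of this in the ribosomal protein values was not tested.

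The library medians show the same picture. Relative to the control mean of each gene, the median ribosomal protein gene lay at -0.004, 0.06 and -0.02 log2 in controls 1 to 3, and at -0.17, -0.19 and -0.07 in DICERKO replicates 1 to 3. In the deposited values all 3 DICERKO medians were below all 3 control medians, with replicate 3 the nearest to the controls. The genes below their control mean numbered 51, 56 and 44 of 61 in DICERKO replicates 1 to 3 and 33, 18 and 32 in controls 1 to 3. The medians over all tested genes stayed between -0.001 and 0.035 in all 6 libraries.

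**Figure D3:**
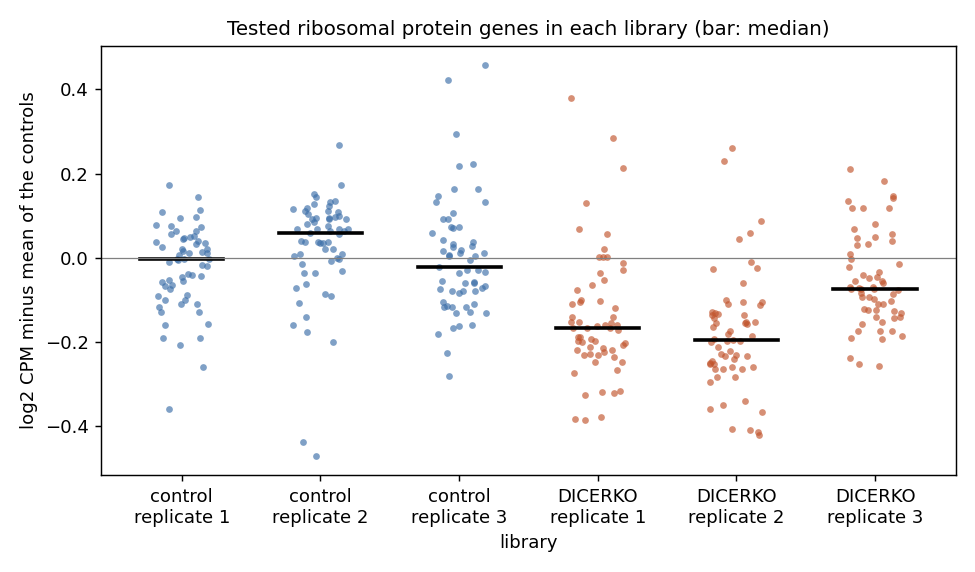
Each tested ribosomal protein gene in each library, as log2 CPM minus the mean of the 3 controls for that gene; points are the 61 genes, spread sideways for visibility, and bars are the medians. The bars lie at -0.17 and -0.19 in DICERKO replicates 1 and 2 and at -0.07 in replicate 3, and the highest control bar is at 0.06 in replicate 2.

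The share of reads given to the group was small and its place for DICERKO replicate 3 depended on the denominator. The 62 genes took 2.75, 2.81 and 2.65% of the reads on the table's genes in controls 1 to 3, and 2.37, 2.33 and 2.70% in DICERKO replicates 1 to 3. On this measure DICERKO replicate 3 lay within the control range. On the deposited scale, which rests on the library size that the values imply, the sums were 20706, 21310 and 19945 CPM in controls and 18260, 17669 and 19333 CPM in DICERKO, so all 3 DICERKO sums were below all controls. The table's genes held 71.5% of that size in DICERKO replicate 3 and 75.2 to 77.1% in the other 5.

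Both subunits had similar values. The median difference was -0.14 over 34 tested 60S genes and -0.16 over 27 tested 40S genes, and 17 and 9 of them had every DICERKO library below every control. The medians were -0.17 and -0.20 without DICERKO replicate 3. The ratio of reads on 60S genes to reads on 40S genes was 1.27, 1.29 and 1.30 in controls 1 to 3 and 1.28, 1.29 and 1.27 in DICERKO replicates 1 to 3, so the groups overlapped.

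The stalk of the 60S subunit and its base, where elongation factors dock, held 3 tested genes, each with every DICERKO library below every control. Such separation was not particular to the stalk: 17 of the 34 tested 60S genes (50%) had it, against 9.81% of all tested genes. Rpl12, the protein at the foot of the stalk (chr2:32961712-32964045), stood at 8.84, 8.88 and 8.62 log2 CPM in controls 1 to 3, and at 8.40, 8.36 and 8.59 in DICERKO replicates 1 to 3. The groups did not overlap, with DICERKO replicate 3 only just under control 3. The difference was -0.33 ± 0.12 (SE), 0.798 times the control level, with a limma adjusted p of 0.244. Without DICERKO replicate 3 Rpl12 fell by 0.40 on the log2 scale (adjusted p = 0.0141). Rplp0 (chr5:115559467-115563729) stood at 10.96, 11.03 and 10.75 in the controls and at 10.60, 10.56 and 10.66 in DICERKO, again without overlap. Its difference was -0.31 ± 0.13 (SE, adjusted p = 0.287), and -0.33 without DICERKO replicate 3 (adjusted p = 0.0489). Rplp1, which pairs with Rplp2 at the tip of the stalk, stood at 9.40, 9.45 and 9.31 in the controls and at 9.18, 9.13 and 9.24 in DICERKO. All 3 DICERKO values lay below the controls, and the difference of -0.20 did not pass with or without DICERKO replicate 3 (limma adjusted p = 0.368 and 0.112).

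Among other 60S genes, Rpl13 (chr8:123102350-123105244), a structural protein of the subunit's surface, stood at 8.64, 8.75 and 8.57 log2 CPM in the controls and at 8.33, 8.29 and 8.53 in DICERKO. Rpl34, another structural protein, stood at 8.08, 8.04 and 7.89 in the controls and at 7.68, 7.72 and 7.85 in DICERKO. In both genes DICERKO replicate 3 lay just below the lowest control and well above the other DICERKO libraries. Their differences were -0.27 and -0.25 over all libraries (limma adjusted p = 0.289 and 0.290) and -0.34 and -0.30 without that library (adjusted p = 0.0223 and 0.0403). Rpl8 and Rpl3, whose proteins reach the peptidyl transferase centre, were separated by less, with differences of -0.18 and -0.16 (-0.21 and -0.17 without DICERKO replicate 3). Rpl5, which carries 5S rRNA and can bind Mdm2, stood at 8.23, 8.22 and 8.25 in the controls and at 8.003, 8.08 and 8.20 in DICERKO, a difference of -0.14 (limma adjusted p = 0.478), or -0.19 without DICERKO replicate 3 (adjusted p = 0.149). Rpl38, which in mice is known for its part in translating Hox messages, had a difference of -0.15 (adjusted p = 0.453), or -0.18 without it (adjusted p = 0.184). Other 60S genes with all DICERKO libraries below all controls included Rpl32, Rpl7, Rpl6, Rpl10a, Rpl37, Rpl41 and Rpl37rt.

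In the 40S subunit, Rpsa, which is also known as a laminin receptor (chr9:120127766-120132369), stood at 9.52, 9.55 and 9.26 log2 CPM in controls 1 to 3, and at 9.12, 9.04 and 9.21 in DICERKO replicates 1 to 3. The groups did not overlap, although control 3 and DICERKO replicate 3 were close. The difference was -0.32 ± 0.12 (SE, limma adjusted p = 0.252), and -0.37 without DICERKO replicate 3 (adjusted p = 0.0263). Rps2, near the channel where messages enter (chr17:24718121-24721927), had nearly equal controls, at 8.33, 8.33 and 8.34, against 8.12, 7.97 and 8.14 in DICERKO. Its difference was -0.26 ± 0.10 (SE, limma adjusted p = 0.268), 0.837 times the control level, and -0.29 without DICERKO replicate 3 (adjusted p = 0.0426). Rps12 (chr10:23785183-23787383) had the largest negative difference, -0.35 ± 0.13 (SE), but its groups overlapped. It stood at 7.77, 7.71 and 7.32 in the controls and at 7.22, 7.18 and 7.35 in DICERKO, so DICERKO replicate 3 was above control 3. Its limma adjusted p was 0.257, and 0.0298 without DICERKO replicate 3 (-0.40). Of its 50-base stretches 83.6% occur in other annotated genes, mostly the pseudogene Rps12-ps3, so its level is uncertain.

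Rps3, at the message entry and also known in DNA repair, had a difference of -0.16 with overlapping groups, or -0.20 without DICERKO replicate 3. Rps27a, made as a fusion with ubiquitin, had one of -0.12 in either fit, with every DICERKO library below every control. Neither passed in either fit. Such separation was also seen in Rps9, Rps20, Rps4x, Rps15a, Rps13 and Rps29 of the 40S subunit. In Rps4x it rested on 8.7517 log2 CPM in DICERKO replicate 3 against 8.7518 in control 3, nearly a tie. In Rps20 these libraries stood at 8.781 and 8.793.

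A minority of members had differences above 0. The difference was positive for Rpl22l1, Rpl24, Rps27l, Rps25, Rpl17, Rpl36al, Rps24, Rpl30 and Rpl23, and for none of these 9 were the groups separated. Without DICERKO replicate 3 the differences of Rpl17, Rps24 and Rpl23 turned to -0.02, -0.01 and -0.03, and that of Rpl23 was also negative (-0.007) under median-of-ratios scaling. The paralogs listed for this comparison, 3 of them tested, were among the 9, with a median of 0.11 (0.15 without DICERKO replicate 3). Other members whose names mark them as copies, which that list leaves out, had negative differences: -0.20 for Rpl37rt, with separated groups, -0.12 for Rpl32l and -0.07 for Rps23rg1. Rpl22l1, the paralog that Rpl22 is known to repress, stood at 4.32, 3.83 and 4.76 log2 CPM in the controls and at 4.68, 4.53 and 4.52 in DICERKO. Its controls spread more widely than the 2 groups differed, and the difference of 0.27 ± 0.20 (SE) had a limma adjusted p of 0.484; it was 0.30 without DICERKO replicate 3 (adjusted p = 0.259). Rpl22 itself stood at 8.43, 8.49 and 8.66 in the controls and at 8.46, 8.43 and 8.66 in DICERKO, a difference of -0.01 whose 95% interval ran from -0.26 to 0.24; it was -0.08 without DICERKO replicate 3. Rps27l, a paralog that p53 induces, stood at 7.03, 6.71 and 6.92 in the controls and at 7.10, 6.97 and 6.92 in DICERKO, a difference of 0.11, or 0.15 without DICERKO replicate 3. Rpl36al, the paralog of Rpl36a, had a difference of 0.03, and Rpl36a one of -0.09 (0.02 and -0.15 without DICERKO replicate 3).

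Rpl24, which forms a bridge between the subunits, stood at 7.99, 7.53 and 8.39 log2 CPM in the controls and at 8.25, 8.23 and 8.11 in DICERKO. All DICERKO values lay inside the control range. Its difference was 0.23 ± 0.18 (SE, limma adjusted p = 0.516), or 0.27 without DICERKO replicate 3, and 47.0% of its exon bases overlap another annotated gene (Gm28037). Rps25, needed for some cap-independent initiation, stood at 8.11, 8.06 and 8.22 in the controls and at 8.26, 8.19 and 8.25 in DICERKO, a difference of 0.10 (0.09 without DICERKO replicate 3) with an overlap of 24.8% (Ccdc84 and Trappc4). Over the 9 members whose exons overlap another gene by 10% or more, the median difference was -0.07 and 4 were positive. Over the other 52 it was -0.16 and 5 were positive. The medians were -0.08 (4 positive) and -0.19 (2 positive) without DICERKO replicate 3. No source used here says that strand was used in counting, and without it the reads of such neighbours cannot be told apart.

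Further properties were compared within the group. Abundant members had somewhat lower differences: across the 61 genes Spearman's rho between mean level and difference was -0.38 and Pearson's r -0.27, as a description over genes that share all 6 libraries. They were -0.34 and -0.18 without DICERKO replicate 3. The median difference was -0.17 in the 30 genes above the median level and -0.12 in the 31 at or below it (-0.21 and -0.16 without that library). Genes that hold a small nucleolar RNA gene inside, 21 of them, had a median of -0.15, as did the 40 that do not (-0.19 and -0.18 without that library).

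The tested ribosomal proteins whose symbols lack the prefix, 2 genes, also had negative differences. Rack1, the 40S scaffold for signalling kinases, stood at 9.99, 10.11 and 9.74 log2 CPM in the controls and at 9.65, 9.57 and 9.77 in DICERKO, a difference of -0.28 (limma adjusted p = 0.316). Fau, which encodes a 40S protein fused to a ubiquitin-like domain, had a difference of -0.15 (adjusted p = 0.473). Neither passed, also without DICERKO replicate 3 (adjusted p = 0.0506 and 0.127).

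Other messages with a TOP tract had a like median. Of 19 such genes listed, 11 also stand in another list used here, and 13 of the 19 were tested. Of these 13, 0 passed in either direction, 11 were negative and the median was -0.16. Without DICERKO replicate 3, 1 passed, lower (7.69%, against 7.22% of all tested genes), and the median was -0.20. That gene was Gas5, a noncoding host of small nucleolar RNAs, at 4.83, 4.90 and 4.62 log2 CPM in the controls and at 4.29, 4.27 and 4.41 in DICERKO. Its groups did not overlap, and its difference was -0.46 (limma adjusted p = 0.131) and -0.50 without that library (adjusted p = 0.00911). Eef2, the translocase of elongation, stood at 11.65, 11.82 and 11.51 in the controls and at 11.41, 11.37 and 11.44 in DICERKO, a difference of -0.25 (adjusted p = 0.375), or -0.27 without DICERKO replicate 3 (adjusted p = 0.124). Eef1a1, the factor that delivers aminoacyl-tRNA, had a difference of -0.19 (adjusted p = 0.493), or -0.22 without it (adjusted p = 0.199).

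Lists of translation and ribosome factors by role share genes with the TOP list and with each other. Of the genes listed, tested or not, 6 of 38 for initiation and 5 of 11 for elongation and release stand in another list. Of 22 tested initiation factors 0 passed in either fit, and their median was -0.06 (-0.05 without DICERKO replicate 3), with 12 negative. The smallest p was that of Eif5b, which joins the subunits, with a difference of 0.25 (limma adjusted p = 0.343). The difference was also 0.25 without DICERKO replicate 3 (limma adjusted p = 0.139). Of 8 elongation and release factors 0 passed in either fit. Their median turned with 1 library: it was 0.02 with 3 negative over all libraries, and -0.045 with 5 negative without DICERKO replicate 3. Of 34 tested factors of ribosome biogenesis 0 passed, 26 were negative and the median was -0.11. Without DICERKO replicate 3 the median was -0.19 with 28 negative. The scaffold Bop1, which acts in 60S rRNA processing, was then called lower (-0.33, limma adjusted p = 0.0459) and the others were not. That is 2.94% of the 34, against 7.22% of all tested genes. Of 13 subunits and factors of RNA polymerase I, which makes the rRNA precursor, 0 passed and the median was -0.10. Without that library the median was -0.13, and Taf1c, part of the polymerase's promoter factor, was called lower (-0.40, limma adjusted p = 0.0473). This was 7.69% of the 13, against 7.22% of all tested genes.

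Among 16 tested regulators of ribosomal protein genes and their messages 0 passed over all libraries, with a median of 0.07 (0.11 without DICERKO replicate 3). Myc, the growth-related transcription factor, stood at 7.36, 7.24 and 7.10 log2 CPM in the controls and at 6.88, 6.78 and 7.12 in DICERKO. DICERKO replicate 3 lay inside the control range and the other 2 below it. The difference was -0.31 (limma adjusted p = 0.267), and -0.41 without that library (adjusted p = 0.0120). In the fit without that library, 2 of the 16 were called higher (12.5%, against 12.5% of all tested genes). Myc alone was called lower (6.25%, against 7.22%). Larp4, which binds poly(A) and steadies ribosomal protein messages, was called higher by 0.43 (limma adjusted p = 0.0410). Rps6ka1, a kinase of ribosomal protein S6, was called higher by 0.46 (limma adjusted p = 0.0277).

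Mitochondrial ribosomal proteins, which are nuclear-encoded and serve the ribosomes inside mitochondria, lay on the other side of 0. Of 55 tested, 0 passed over all libraries, 9 were negative and the median was 0.16, against -0.15 for the cytosolic proteins. In 10 of them (18.2%, against 10.4% of all tested genes) every DICERKO library was above every control, and in 0 below (against 9.81%). Without DICERKO replicate 3, 11 were called higher (20.0%, against 12.5% of all tested genes) and 0 lower (against 7.22%), with a median of 0.22. Mrpl51, of the mitochondrial large subunit, stood at 5.86, 5.79 and 6.15 log2 CPM in the controls and at 6.60, 6.48 and 6.10 in DICERKO, where replicate 3 lay inside the control range. Its difference was 0.46 (limma adjusted p = 0.204), and 0.61 without DICERKO replicate 3 (limma adjusted p = 0.00185). Relative to the control means, the median mitochondrial gene lay at 0.26, 0.16 and 0.01 in DICERKO replicates 1 to 3. The median adipocyte marker lay at 0.59 and 0.58 in DICERKO replicates 1 and 2 and at -1.11 in replicate 3; their part in either family's values was not tested. The difference between the families was not tested.

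**Figure D4:**
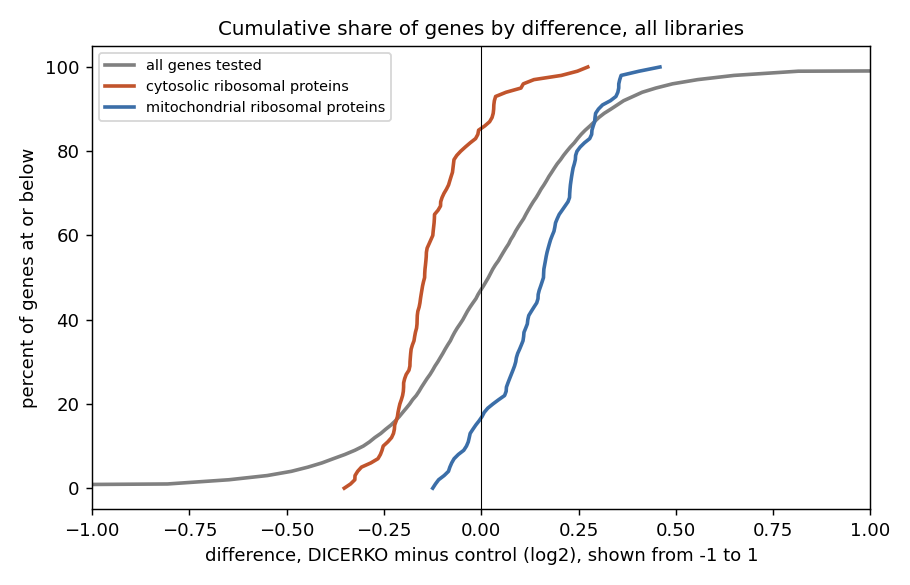
Cumulative percent of genes at or below each difference (DICERKO minus control, log2 CPM, all 6 libraries), for all 10054 tested genes, the 61 cytosolic and the 55 mitochondrial ribosomal protein genes. The medians are at 0.02, -0.15 and 0.16, so the cytosolic curve lies left of that of all genes from 17% of the genes upward and right of it under that, and the mitochondrial curve lies right of it up to 87% and left of it beyond.

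The direction of the group's median difference held under other scalings. With median-of-ratios scaling the median difference was -0.17 and 53 of 61 genes were negative, and with library sizes from the reads on the table's genes it was -0.13 with 50 negative. When the members' own reads were left out of that library size, it was -0.14 with 51 negative. The median over all tested genes was -0.01, 0.03 and 0.03 under these scalings. Under all 3, 0 members passed the test in either direction. Whether every DICERKO library stayed below every control was not counted under these scalings. Relative to the mean shift of the 6 libraries, sizes from the table's reads moved DICERKO replicate 3 up by 0.072 log2. The controls moved by -0.015 to -0.001. In the deposited values the median member of DICERKO replicate 3 lay at -0.073 from the control mean, so its place below the controls depends on the scaling.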

How the data were processed

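The authors deposited log2 CPM values for 13734 genes in 6 libraries; per the submitters' processing notes, FastQC, Trimmomatic, HISAT2, featureCounts and edgeR were used, with mm10 and GRCm38 named as builds. With k whole reads of a gene, each value is log2 CPM of (k + 0.5) over (N + 1); 100% of values gave a whole k within 0.01 reads, and these reads were used here. Implied library sizes N ran from 17594568 to 42331787; more reads give smaller counting error, and reads outside the table are not analysed here.

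Entrez IDs were matched to RefSeq symbols (13682 matched, 52 did not). Genes that reached 1 CPM in 3 or more libraries were tested with limma 3.58.1 (R 4.3.3, intensity trend, group as the only term), with Benjamini-Hochberg adjustment over all 10054 genes and a threshold of 0.05. Differences on this scale understate changes of low genes. The test was checked on simulated data whose changes were larger than every member's difference and which held no outlying library. That check does not cover differences of the size reported here. Length per gene is the median of the basic coding transcripts in GENCODE M21, which can be long for genes with rare long isoforms (Rps15a, Rps20). Replicate libraries were compared and none was a duplicate. Alternatives changed the libraries, the replicate term, the test, the offset, the filter and the scaling. Members named are those with the 10 smallest p, the 5 largest and 5 smallest differences, the 5 highest and 3 lowest levels, a list of members with known roles, and paralogs with their parents; from other lists, up to 2 in each direction past the threshold or the smallest p. The single values of 2 members, which are counted in all group values, are not reported here. The members and lists were chosen with earlier results of these data known. Other steps used Python 3.11.15 with pandas 2.3.3, numpy 2.4.6 and matplotlib 3.10.9.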

Additional observations from a re-analysis of the deposited data

How the results depend on the processing

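With 3 libraries a group, a difference near 0.15 (log2) in a single gene is inside most of the intervals. The number of ribosomal protein genes called lower was 0 in the planned fits except without DICERKO replicate 3, so leaving out each library in turn gave 0 to 8. Without that library it was also 8, the same 8 genes, when library sizes came from the table's reads and under median-of-ratios scaling, both chosen after seeing the data. The number called higher was 0 throughout. The median difference stayed between -0.21 and -0.12. Genes called among all 10054 numbered 44, and 1 to 1983 when each library was left out, 19 without an intensity trend, and 1922 and 2008 in the 2 added combinations. The lowest count, 1, came without control replicate 3; without control replicates 1 and 2 it was 11 and 10, and without DICERKO replicate 2 it was 19. With the replicate block 2 genes were called, 0 of them ribosomal. The numbers share no stated culture: correlations of deviations in same-numbered pairs were 0.20, -0.01 and -0.08, and 2 of 3 controls correlated best with another number. For the 29 named members, 456 of 490 values kept sign and call, 21 newly passed and 13 changed sign, all in genes near 0. Leaving out a library gave -0.0196 to 0.104 for Rpl17, -0.0824 to 0.0560 for Rpl22, -0.0314 to 0.142 for Rpl36al and -0.254 to 0.0922 for Rps23rg1. Rpl17 was -0.0366 and -0.0448 in the added combinations, Rpl36al -0.0048 in the median-of-ratios one, and Rpl22 0.0023 with table reads as library size. The cause of these changes was not tested.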

Other observations

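The table also holds 9 rows named as ribosomal protein pseudogenes, which the member rule leaves out. They were left out by name: the annotation calls Rpl34-ps1 and Rpl31-ps12 protein-coding and Rps18-ps4 a long noncoding RNA. Of the 8 tested, 6 had a negative difference, with a median of -0.10, against -0.15 for the members. Rps6-ps4 stood at 6.01, 5.70 and 5.73 log2 CPM in the controls and at 5.57, 5.48 and 5.51 in DICERKO, so the groups did not overlap, and its difference was -0.30 (limma adjusted p = 0.264; -0.29 without DICERKO replicate 3). Rpl34-ps1 stood at 5.88, 5.84 and 5.95 in the controls and at 5.61, 5.63 and 5.74 in DICERKO, with a difference of -0.23 (adjusted p = 0.302; -0.27 without that library). Both were chosen after their values were seen. Reads of the parent genes and of these near-copies may have been exchanged in counting, which was not tested.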
